A study of Mus musculus with 20 samples.

Results

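Lymphoid-primed multipotent progenitors (LMPP) were compared with multipotent progenitors (MPP) from mouse bone marrow. The comparison holds the 2 arrays titled as LMPP and the 2 titled as MPP, 4 of the 20 Affymetrix arrays of a series whose stated purpose was the search for Ets1-dependent genes in natural killer cells. Both populations came from wild-type C57bl/6 mice aged 8 to 14 weeks and were sorted by flow cytometry straight into lysis buffer, without any treatment. Common lymphoid progenitors (CLP, 3 arrays), granulocyte-monocyte progenitors (GMP, 3 arrays) and hematopoietic stem cells (HSC, 2 arrays) of the same strain, tissue and age range served as arrays outside the comparison. The labels give no surface markers for the sort gates. They also do not say that replicates are different animals, so the p-values rest on a spread between arrays that can be technical.

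MPPs stand below the stem cell in the blood hierarchy and can give rise to all blood lineages. LMPPs, usually gated on a high level of the receptor Flt3, retain granulocyte-monocyte and lymphoid potential and have lost most megakaryocyte and erythroid potential. Lymphoid priming is the name for low-level transcription of lymphocyte genes in such cells before they commit to a lineage. GATA factors and their cofactors drive mast cell, erythroid and megakaryocyte programs.

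In LMPP, genes of lymphoid priming such as Dntt, Satb1 and Notch1 were higher than in MPP. Genes of the megakaryocyte lineage such as Pf4 and Itga2b were lower in LMPP, with 9 of 23 tested at an adjusted p below 0.05. Of the 29 erythroid genes tested, 6 were lower at that threshold, among them Gata1, which stands in both lists. The erythroid genes Klf1 and Epor did not pass it. Of the 20 mast cell genes tested, 3 were lower at an adjusted p below 0.05, among them Slc18a2 and Cpa3. The median of the mast cell list was -0.20. With limma and Benjamini-Hochberg adjustment over 13479 genes tested, 231 genes had an adjusted p below 0.05 and count as called, which is 1.71% of all. Of these 127 were higher (0.942%) and 104 lower (0.772%), and 1179 genes had an unadjusted p below 0.05. For all 231 the LMPP arrays did not overlap the MPP arrays, as was true of 25.8% of all genes tested with LMPP above and of 17.9% with LMPP below. The median difference over all genes tested was 0.05 on the log2 scale. When arrays were centred on 13 housekeeping genes the median of all genes moved to -0.29, and 67 genes were called higher and 113 lower. The share of calls that were higher was then 37.2%, against 55.0% as deposited, so directions of small size depend on the scaling. Leaving out 1 array gave 59 higher and 45 lower without MPP array 2, 57 and 49 without LMPP array 1, 60 and 46 without LMPP array 2, and 90 and 116 without MPP array 1.

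The root-mean-square standard deviation (SD) per gene was 0.244 in LMPP and 0.352 in MPP, and replicate arrays correlated at 0.987 in LMPP and 0.975 in MPP across genes. The actin 3' signal exceeded the 5' signal by 2.10 and 1.92 log2 units in LMPP and by 2.18 and 1.88 in MPP. It did so by 3.26 to 5.27 units in CLP and by 6.44 to 6.68 in GMP, against 2.16 to 2.65 in HSC, and CLP arrays 1 and 3 stood apart from CLP array 2. The MPP arrays differed from each other along the genes of the comparison. MPP array 2 lay above MPP array 1 in 92 of the 104 genes called lower in LMPP (88.5%), with a median gap of 0.61, against 62.0% and 0.13 over all genes tested. For the 127 genes called higher this held in 46 (36.2%), with a median gap of -0.16. LMPP array 2 lay above LMPP array 1 in 49 of the 104 and in 58 of the 127. The part of this array difference in the results below was not tested.

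Of the 34 members of the lymphoid priming list, 30 were analysed and all 30 passed the filter on dim genes. Of these, 8 were higher in LMPP and 0 lower, and 18 had an unadjusted p below 0.05. The background was 0.942% called higher. Members and lists were chosen with earlier results of these data known. Counts of list members against the background, here and below, are therefore descriptive and not an independent test. The median difference of the 30 genes was 0.97, against 0.05 over all genes tested, and 24 of the 30 lay above 0. Centred on housekeeping genes, 6 were called and the median was 0.63. The count was 4 without MPP array 2 or without LMPP array 1, and 5 without LMPP array 2. In bulk RNA such as this, fewer cells of a type and less RNA per cell cannot be told apart.

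Dntt encodes terminal deoxynucleotidyl transferase, the enzyme that adds bases to the junctions of antigen receptor genes. Its log2 intensity was 12.72 and 12.76 on the LMPP arrays, against 8.28 and 7.70 on the MPP arrays. The LMPP arrays nearly coincided and lay far above both MPP arrays, a difference of 4.75 ± 0.38 (SE, 26.9-fold, limma adjusted p = 8.82e-07). All 3 probe sets of Dntt were called, the other two with differences of 5.41 and 6.02. Satb1, a chromatin organiser needed for early lymphoid development, read 10.78 and 10.69 in LMPP, against 7.59 and 7.08 in MPP (3.40 ± 0.27, 10.6-fold, limma adjusted p = 8.82e-07). Its probe sets agreed in direction, and 3 of 5 were called.

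Notch1, the receptor whose signal commits progenitors to the T lineage in the thymus, read 10.49 and 10.28 in LMPP, against 7.89 and 7.06 in MPP. The difference was 2.91 ± 0.31 (7.53-fold, limma adjusted p = 1.22e-05), and the second probe set was called as well, at 1.20. Btla, an inhibitory receptor of lymphocytes, read 7.67 and 7.04 in LMPP, against 3.90 and 3.91 in MPP, where both arrays were near the array median. That made a difference of 3.45 ± 0.57 (11.0-fold, limma adjusted p = 0.00173). Neither pair of arrays overlapped the other for Notch1 or Btla.

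The promoters of the called lymphoid genes that rose most and have an entry in the table used are shown from RefSeq, build GRCm38.p6, from 250 bases before to 50 bases after the start of the gene, 5′ to 3′ on the gene's own strand. Capitals mark the letters AGATAA or TGATAA, on either strand, the core that GATA factors bind, or CAGCTG, an E-box bound by basic helix-loop-helix factors. Dntt lies at chr19:41029025-41029324 on the plus strand and Btla at chr16:45224087-45224386 on the plus strand.
Dntt: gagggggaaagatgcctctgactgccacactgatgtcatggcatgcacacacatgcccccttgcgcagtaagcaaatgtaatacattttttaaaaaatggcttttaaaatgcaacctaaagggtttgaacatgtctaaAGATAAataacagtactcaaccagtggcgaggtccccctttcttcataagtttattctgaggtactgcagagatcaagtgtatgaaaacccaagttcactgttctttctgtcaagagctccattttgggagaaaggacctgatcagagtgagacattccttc
Btla: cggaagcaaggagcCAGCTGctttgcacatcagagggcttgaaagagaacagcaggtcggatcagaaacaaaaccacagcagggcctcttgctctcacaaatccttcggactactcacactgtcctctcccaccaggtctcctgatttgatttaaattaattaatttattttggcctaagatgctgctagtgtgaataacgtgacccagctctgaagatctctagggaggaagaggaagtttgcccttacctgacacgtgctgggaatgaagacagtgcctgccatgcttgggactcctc
The GATA core of Dntt starts 112 bases before the gene's start and the E-box of Btla 236 bases before it. A GATA core was found in the window of 1 of the 7 called lymphoid genes with a promoter entry (14.3%), against 13.1% of the genes tested and 18.6% of all 32851 windows in the table. A match of letters is a description and not a binding site.

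Flt3, the receptor for Flt3 ligand and a usual sorting marker of LMPPs, read 11.00 and 10.99 in LMPP, against 9.72 and 8.34 in MPP. The difference was 1.96 ± 0.43 (3.90-fold, limma adjusted p = 0.0175). Whether Flt3 was used in the sort is not stated in the labels, so its level may follow from the gate. Ikzf1, which encodes the lymphoid zinc finger factor Ikaros, read 10.68 and 10.51 in LMPP, against 9.30 and 9.59 in MPP (1.15 ± 0.25, 2.22-fold, limma adjusted p = 0.0184). The call rests on 1 of its 2 probe sets, the other reading -0.05. The call for Flt3 was lost in 6 of 18 alternatives and that for Ikzf1 in 7, among them centring on housekeeping genes. Each single array other than MPP array 1 was needed for the Flt3 call, whose difference was 1.27 without MPP array 2, and every one of the 4 was needed for Ikzf1.

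Ccr9, a chemokine receptor for homing to thymus and gut, read 6.30 and 4.15 in LMPP, against 3.07 and 2.85 in MPP. LMPP array 1 was well above LMPP array 2, although both exceeded the MPP arrays (2.26 ± 0.45, limma adjusted p = 0.00857). The MPP values lay below the array median, so no fold is given. Without LMPP array 1 the difference was 1.19 and the call ended, as it did without MPP array 2, and its other 4 probe sets were dim. Ighm, the immunoglobulin heavy chain constant region, had the largest difference of the list and a wide spread on other arrays. It read 11.13 and 11.13 in LMPP, against 6.81 and 5.40 in MPP (5.03 ± 1.18, 32.6-fold, limma adjusted p = 0.0321). The HSC arrays read 4.42 and 11.29 on the same probe set, and 1 other of its 11 probe sets moved alike (5.32), while the 8 others tested lay between -0.18 and 0.18. Its call was lost in 8 of 18 alternatives, including each leave-one-out fit.

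Il7r and Rag1, both in the lymphoid priming list, were not called. Il7r, the receptor chain for interleukin 7, read 5.90 and 4.79 in LMPP, against 4.34 and 3.67 in MPP (1.34 ± 0.43, limma adjusted p = 0.195). The LMPP arrays lay above the MPP arrays without overlap, but the spread was too large for a call. Rag1, which encodes a recombinase subunit, read 3.56 and 2.91 in LMPP, against 2.81 and 2.74 in MPP, all below the array median (0.46 ± 0.43, adjusted p = 0.931). The remaining members that were not called ran from -0.32 to 1.71. In the B lineage list limma called 0 of 16 genes, 1 had an unadjusted p below 0.05, and the median was 0.02. The B lineage factors Ebf1 and Pax5, named after their values were seen, read 2.41 to 3.67 in LMPP, against 2.49 to 3.78 in MPP. The list's mean log2 intensity was 4.04 and 4.05 in LMPP, against 4.0 and 3.93 in MPP. In the T lineage list 1 of 16 was called, Thy1, which was lower in LMPP and is a marker shared with HSC. Over all genes tested 0.772% were called lower. In that list 5 of 16 had an unadjusted p below 0.05, 11 lay below 0, and the median was -0.11. Limma called 0 of 11 natural killer cell genes and 0 of 14 genes of mature neutrophils and monocytes, with 0 at an unadjusted p below 0.05 in each.

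**Figure D1:**
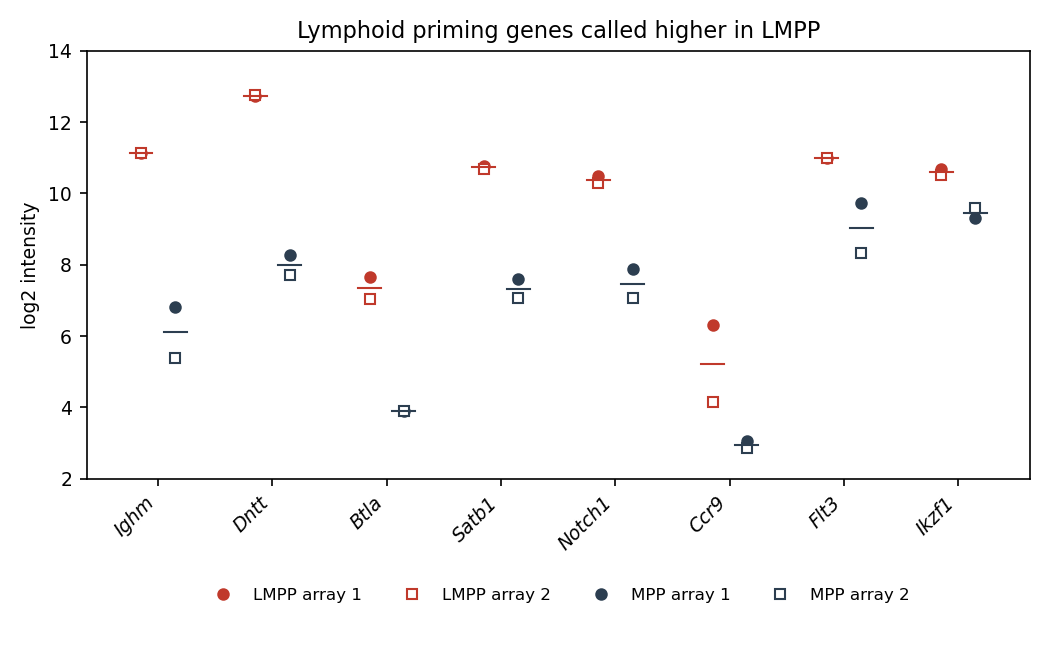
Log2 intensity of the 8 lymphoid priming genes called higher in LMPP, 1 symbol per array and short lines for group means, LMPP in red to the left of MPP in dark blue for each gene. All LMPP symbols lie above the MPP symbols of the same gene, closely for Ikzf1 and Ccr9 and widely for Dntt.

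The mast cell list held 26 genes, of which 24 were analysed and 20 tested after the filter on dim genes. Of the 20, 3 were lower in LMPP (5 without MPP array 1) and 0 higher, where the background was 0.772% called lower, and 5 had an unadjusted p below 0.05. The median was -0.20, and 13 of the 20 lay below 0. That median moved with the setting, to -0.54 when centred on housekeeping genes, -0.35 with repeated quantile normalization or without LMPP array 2, -0.38 without MPP array 1 and -0.12 without LMPP array 1. Slc18a2 encodes the vesicular monoamine transporter, which loads histamine and serotonin into granules. It read 2.78 and 3.36 in LMPP, against 6.81 and 8.97 in MPP, with the MPP arrays far apart but both well above LMPP (-4.82 ± 0.48, limma adjusted p = 6.53e-06). Both LMPP values lay below the array median, so no fold is given. Cpa3, mast cell carboxypeptidase, read 3.63 and 4.19 in LMPP, against 8.20 and 8.92 in MPP (-4.65 ± 0.30, 25.1-fold, limma adjusted p = 5.38e-08). Its value on LMPP array 1 lay below the array median, so the fold is approximate.

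Gata2, a zinc finger factor of stem cells and mast cells, read 7.47 and 7.21 in LMPP, against 9.69 and 10.48 in MPP. Its 2 probe sets both fell, by 2.75 ± 0.39 (6.71-fold, limma adjusted p = 0.000408) and by 1.99. Gata2 stayed above the array median in LMPP. Ms4a2, the beta chain of the high-affinity IgE receptor, was not called, with 3.10 and 3.14 in LMPP, against 3.78 and 5.46 in MPP (-1.50 ± 0.39, limma adjusted p = 0.062). The difference was -0.66 without MPP array 2, and -2.35 and called without MPP array 1. Kit, the stem cell factor receptor that mast cells keep, read 9.57 and 10.15 in LMPP, against 9.36 and 10.78 in MPP, with overlapping arrays (-0.21 ± 0.49, adjusted p = 0.993). Its sign turned without MPP array 2 or without LMPP array 1.

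The erythroid list had 38 genes, 33 analysed and 29 tested. LMPP were lower for 6 and higher for 0, with 12 at an unadjusted p below 0.05, against 0.772% called lower over all genes tested. The median was -0.54, which was -0.32 without MPP array 2 and -0.88 when centred on housekeeping genes, and 1 call was left in the fit on HSC, MPP and LMPP. Gata1, the master factor of erythroid and megakaryocyte cells, read 5.02 and 4.84 in LMPP, against 6.92 and 8.30 in MPP (-2.68 ± 0.42, 6.42-fold, limma adjusted p = 0.00107). Zfpm1, which encodes its cofactor FOG1, read 5.96 and 5.54 in LMPP, against 8.11 and 8.20 in MPP (-2.40 ± 0.26, 5.30-fold, limma adjusted p = 1.97e-05). The 2 MPP arrays were close for Zfpm1, and LMPP stayed above the median; its second probe set read -0.66 and was not called.

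Tal1, a basic helix-loop-helix partner of GATA factors, read 7.73 and 7.43 in LMPP, against 8.84 and 8.99 in MPP (-1.33 ± 0.32, limma adjusted p = 0.035), and its call was lost in each leave-one-out fit. The water channel gene Aqp1 (-2.60 ± 0.46), the adhesion gene Icam4 (-2.16 ± 0.39) and the repressor gene Gfi1b (-1.76 ± 0.35) were also called lower. Aqp1 read 3.05 and 3.33 in LMPP, against 4.73 and 6.84 in MPP. Icam4 read 4.21 and 4.45 in LMPP, against 5.78 and 7.20 in MPP, so MPP array 2 was the higher in both. Gfi1b read 4.73 and 4.23 in LMPP, against 5.94 and 6.54 in MPP. Without MPP array 2 the erythroid count was 2, and Aqp1 differed by -1.55. Without LMPP array 1 the count was 3, and without LMPP array 2 it was 4, with the Gfi1b call lost. Klf1, an erythroid zinc finger activator, read 4.64 and 5.14 in LMPP, against 5.28 and 7.19 in MPP (-1.35 ± 0.63, adjusted p = 0.556). Epor, the erythropoietin receptor, read 5.10 and 4.91, against 5.33 and 6.10 in MPP (-0.71 ± 0.34, adjusted p = 0.585). Neither was called, although the arrays did not overlap for either. Without MPP array 2 the differences were -0.39 for Klf1 and -0.32 for Epor, and without MPP array 1 they were -2.30 and -1.10.

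The megakaryocyte list had the highest count of the 3, with 9 of 23 tested genes lower in LMPP and 0 higher, from 32 members of which 27 were analysed. Its median was -1.34, against 0.05 for all genes tested, of which 0.772% were called lower. In the list 16 had an unadjusted p below 0.05. Without MPP array 2 the median was -0.55, and 6 were called. Pf4, the platelet chemokine, read 3.80 and 4.71 in LMPP, against 8.15 and 9.38 in MPP (-4.51 ± 0.53, 22.8-fold, limma adjusted p = 4.2e-05). The Pf4 fold is approximate, since the lower LMPP value lay below the array median. Itga2b, the platelet integrin chain CD41, read 5.18 and 5.59 in LMPP, against 9.15 and 10.02 in MPP (-4.20 ± 0.37, 18.3-fold, limma adjusted p = 2.09e-06). Both arrays of each population stood apart by several log2 units for these genes.

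Vwf, von Willebrand factor of platelets and endothelium, read 2.47 and 2.71 in LMPP, against 4.40 and 7.11 in MPP (-3.17 ± 0.49, limma adjusted p = 0.000966), with both LMPP values below the array median. The MPP arrays were far apart for Vwf, yet both lay above LMPP, and without MPP array 2 the difference was -1.82 and still called. The call was lost in the fit on the 4 arrays alone and in the fit on HSC, MPP and LMPP. The platelet glycoprotein genes Gp5 (-2.02 ± 0.33) and Gp9 (-1.39 ± 0.30) and the tetraspanin gene Cd9 (-1.84 ± 0.35) were called as well, next to Gata1, Zfpm1 and Gfi1b, which stand in the erythroid list too. Gp5 read 4.11 and 3.73 in LMPP, against 5.96 and 5.91 in MPP, where it was nearly the same on both arrays. Gp9 read 5.40 and 5.39 in LMPP, against 6.41 and 7.17 in MPP. Cd9 read 5.03 and 5.15 in LMPP, against 6.64 and 7.22 in MPP. The calls for Cd9 and Gp9 ended without MPP array 2, LMPP array 1 or LMPP array 2. Taken as 1 set, the 3 lists gave 15 lower and 0 higher among 67 tested genes, with a median of -0.45. Over all genes tested 0.772% were called lower and 0.942% higher.

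The promoters of 3 genes that fell most and hold a GATA core are given from the same table, with the same capitals. They are shown because these genes carry the largest falls of the 3 lists. Slc18a2 lies at chr19:59260628-59260927 on the plus strand, Cpa3 at chr3:20242132-20242431 on the minus strand, and Pf4 at chr5:90772185-90772484 on the plus strand.
Slc18a2: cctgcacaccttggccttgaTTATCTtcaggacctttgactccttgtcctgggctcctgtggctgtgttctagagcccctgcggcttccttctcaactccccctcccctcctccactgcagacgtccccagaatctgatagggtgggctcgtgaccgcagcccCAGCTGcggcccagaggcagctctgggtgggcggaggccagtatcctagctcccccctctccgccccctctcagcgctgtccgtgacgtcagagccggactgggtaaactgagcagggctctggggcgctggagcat
Cpa3: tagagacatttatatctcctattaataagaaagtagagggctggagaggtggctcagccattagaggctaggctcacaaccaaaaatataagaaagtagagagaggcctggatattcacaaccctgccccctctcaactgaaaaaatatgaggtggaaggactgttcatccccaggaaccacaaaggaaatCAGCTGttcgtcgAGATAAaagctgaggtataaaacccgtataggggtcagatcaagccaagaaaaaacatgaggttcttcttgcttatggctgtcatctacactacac
Pf4: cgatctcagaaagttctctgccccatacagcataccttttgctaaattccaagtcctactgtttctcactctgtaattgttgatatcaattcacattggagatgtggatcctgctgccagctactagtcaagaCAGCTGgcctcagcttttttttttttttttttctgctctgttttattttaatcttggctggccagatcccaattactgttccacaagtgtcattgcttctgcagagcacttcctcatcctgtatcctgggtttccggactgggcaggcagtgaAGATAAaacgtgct
In Cpa3 the E-box and the GATA core start 59 and 46 bases before the gene's start, both on its own strand. In Slc18a2 the GATA core lies 230 bases before the start on the opposite strand, with an E-box at 87 bases before it. In Pf4 the GATA core starts 36 bases after the start and the E-box 117 bases before it. Of the called mast, erythroid and megakaryocyte genes with a promoter entry, 7 of 14 held a GATA core and 6 of 14 a CAGCTG (42.9%). Over the genes tested that have a promoter entry these shares were 13.1% and 18.3%. Among all genes called lower they were 30.7% and 28.4%, among the 100 genes called higher with an entry 22 and 27 genes held them, and 28.6% of the called lymphoid genes held a CAGCTG. The genes were chosen by their values, so no test was made.

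**Figure D2:**
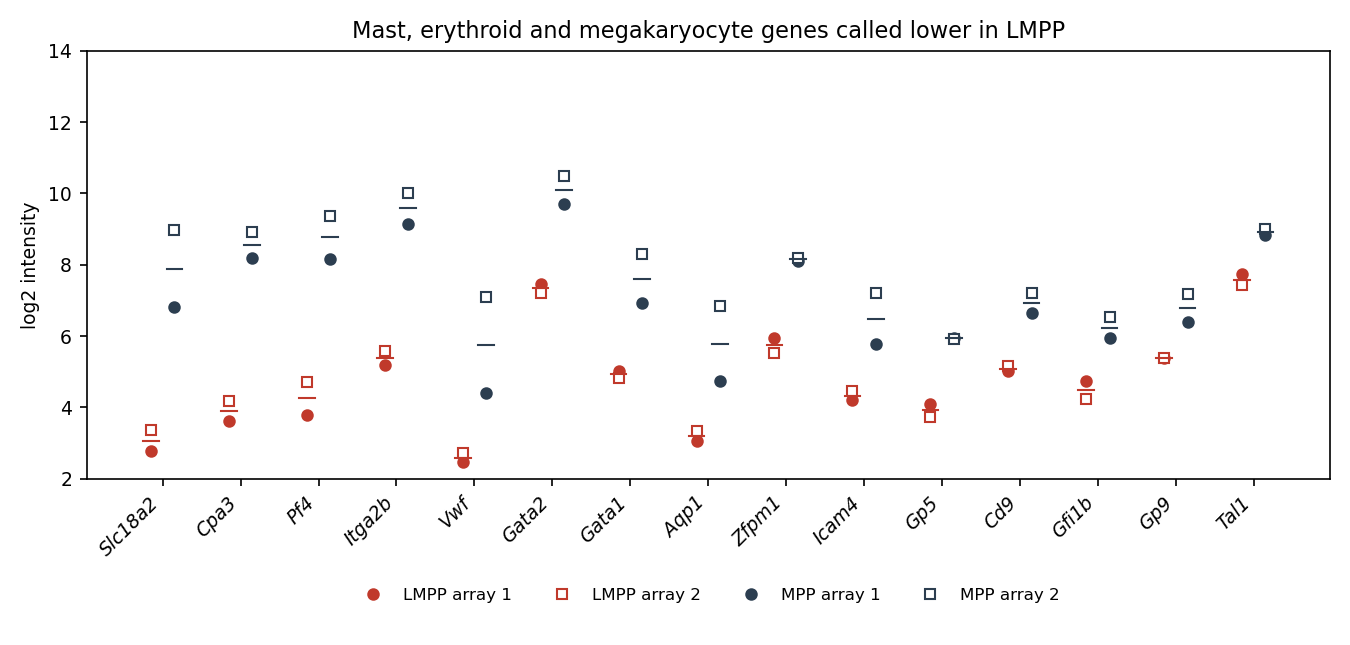
Log2 intensity of the 15 mast cell, erythroid and megakaryocyte genes called lower in LMPP, 1 symbol per array and short lines for group means, LMPP in red to the left of MPP in dark blue for each gene. LMPP symbols lie below MPP symbols for every gene, and MPP array 2 lies above MPP array 1 for most of them.

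Of the stem cell and multipotent list, genes were lower in LMPP for 8 of 39 and higher for 0. Over all genes tested these shares were 0.772% and 0.942%. The median of the list was -0.67. Without MPP array 2 the median was -0.24 and 4 were called, as without LMPP array 2, and 5 without LMPP array 1. Tek, the angiopoietin receptor of quiescent stem cells, read 2.48 and 2.72 in LMPP, against 4.0 and 6.81 in MPP (-2.80 ± 0.54, limma adjusted p = 0.00623), but only -1.40 without MPP array 2, and the call ended without that array or either LMPP array. Trpc6, a calcium channel gene, read 2.43 and 2.50, against 4.06 and 5.46 in MPP (-2.29 ± 0.32, adjusted p = 0.000318). Thy1 read 4.12 and 3.59, against 6.34 and 5.83 in MPP (-2.23 ± 0.32, adjusted p = 0.000462), and here MPP array 1 was the higher. Slamf1, the stem cell marker CD150, read 3.39 and 3.17 in LMPP, against 3.85 and 4.75 in MPP (-1.02 ± 0.26, adjusted p = 0.0547) and was just outside the threshold. Its difference was -0.57 without MPP array 2, and -1.47 and called without MPP array 1.

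The granulocyte-monocyte list had 7 of 27 genes higher and 2 lower in LMPP, against 0.942% and 0.772% over all genes tested. Its median was 0.18, which turned to -0.16 when centred on housekeeping genes. Without MPP array 2, 2 were higher and the median was -0.03, without LMPP array 2, 1 was higher and the median was 0.05, and without MPP array 1 the median was 0.40. Irf8, a factor of monocytes, dendritic cells and B cells, read 9.45 and 10.06 in LMPP, against 6.11 and 5.0 in MPP (4.20 ± 0.37, 18.4-fold, limma adjusted p = 2.27e-06). Csf1r, the receptor for macrophage growth factor, read 8.18 and 9.17 in LMPP, against 7.07 and 5.83 in MPP (2.23 ± 0.43, adjusted p = 0.00653). Cebpa, a granulocyte-monocyte factor, read 5.46 and 5.72, against 4.47 and 4.0 in MPP (1.35 ± 0.25, adjusted p = 0.00449), and the adhesion gene Emb (2.45 ± 0.45) and the annexin gene Anxa3 (2.12 ± 0.36) rose as well. The calls for Csf1r, Cebpa and Emb ended without MPP array 2 or without LMPP array 2, and that for Anxa3 without LMPP array 2. Elane, neutrophil elastase (-1.39 ± 0.34), and Ms4a3, a gene of granulocyte-monocyte progenitors (-1.70 ± 0.41), named after their values were seen, were lower. Both of these calls ended without MPP array 2, without LMPP array 1 and without LMPP array 2, and 1 was left without MPP array 1. Mpo, myeloperoxidase, read 11.15 and 11.53 in LMPP, against 11.71 and 11.05 in MPP, with overlapping arrays.

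Among 34 genes of cytokine receptors and their signalling proteins, 5 were called higher in LMPP and 1 lower. Over all genes tested 0.942% were called higher and 0.772% lower. The 1 list member called lower was Stat5a, a signal transducer and not a receptor (-1.48 ± 0.35). Centred on housekeeping genes, 3 were higher and 2 lower, and the median was -0.14, against 0.20 as deposited. The largest rise of the list was in Il1r1, the interleukin 1 receptor, with 9.89 and 10.06 in LMPP, against 7.23 and 7.0 in MPP (2.86 ± 0.24, limma adjusted p = 1.31e-06). Il6st and Il6ra, which make the interleukin 6 receptor, were 2.00 ± 0.29 and 1.97 ± 0.46 higher. The other tested probe sets of Il6st read -0.06 and 0.85 and were not called. Its call was lost with the mean of its probe sets. The other probe set of Il6ra read 0.16, and the call for Il6ra was lost in 7 of 18 alternatives. The list kept 2 genes higher without MPP array 2 or LMPP array 2, and 3 without LMPP array 1. Il6st read 6.28 and 7.18 in HSC, which overlaps its LMPP values of 6.47 and 6.75. Among 14 antigen presentation genes 2 rose, H2-Ob, a chain that regulates peptide loading of MHC class II (2.46 ± 0.37), and Cd74, the invariant chain (1.94 ± 0.33), the call for Cd74 ending without LMPP array 1. Cd74 read 6.87 and 7.21 in HSC, at or above its LMPP values of 6.86 and 6.09. In the homing list 3 of 31 genes were higher and 2 lower, which were Itga2b and the endothelial adhesion gene Esam (-1.92), and centred on housekeeping genes 1 was higher and 4 lower. Itgal, an integrin chain of leukocytes, was 1.49 ± 0.26 higher, but its other probe set read -0.27, and the call was lost in 4 of 18 alternatives, among them that centring and the fit without LMPP array 1. The stromal gene Postn was called higher at 6.74 and 5.11 in LMPP, against 4.22 and 4.33 in MPP (1.65 ± 0.34, and 0.84 and not called without LMPP array 1), and the other 5 stromal genes tested were not called.

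Outside these lists the largest rises were in Cnn3, which encodes a calponin (4.63 ± 0.52), and Ccl3, a chemokine gene (4.56 ± 0.50). Cnn3 read 10.78 and 10.16 in LMPP, against 6.73 and 4.95 in MPP, and 5 of its 6 probe sets were called. Ccl3 read 11.30 and 11.06 in LMPP, against 7.04 and 6.20 in MPP (limma adjusted p = 1.97e-05). Ddx4, a germ cell RNA helicase gene, read 8.08 and 6.07 in LMPP, against 2.79 and 2.68 in MPP (4.35 ± 0.68, adjusted p = 0.00107) and LMPP array 1 was the higher of the LMPP arrays. Apoe (-4.76 ± 0.47), the transglutaminase gene Tgm2 (-4.39 ± 0.45), Aldh1a1 (-4.29 ± 0.46) and the imprinted gene Grb10 (-4.20 ± 0.46) were lower. Apoe, which encodes a lipid carrier, read 4.91 and 4.90 in LMPP, against 8.99 and 10.34 in MPP. Tgm2 read 5.06 and 4.32 in LMPP, against 8.41 and 9.75 in MPP. Aldh1a1 makes retinoic acid, and it read 3.23 and 2.47 in LMPP, against 6.28 and 7.99 in MPP.

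Cell cycle genes were not called, with 0 of 24 genes of G1 and S phase and 0 of 23 of G2 and M phase by limma (1 and 0 at an unadjusted p below 0.05). In G2 and M 22 of 23 lay above 0 and the median was 0.38, but when centred on housekeeping genes the median was 0.04 and 13 lay above 0. Hox and interferon genes gave 0 of 13 and 0 of 25 called, with 2 and 4 at an unadjusted p below 0.05.

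**Figure D3:**
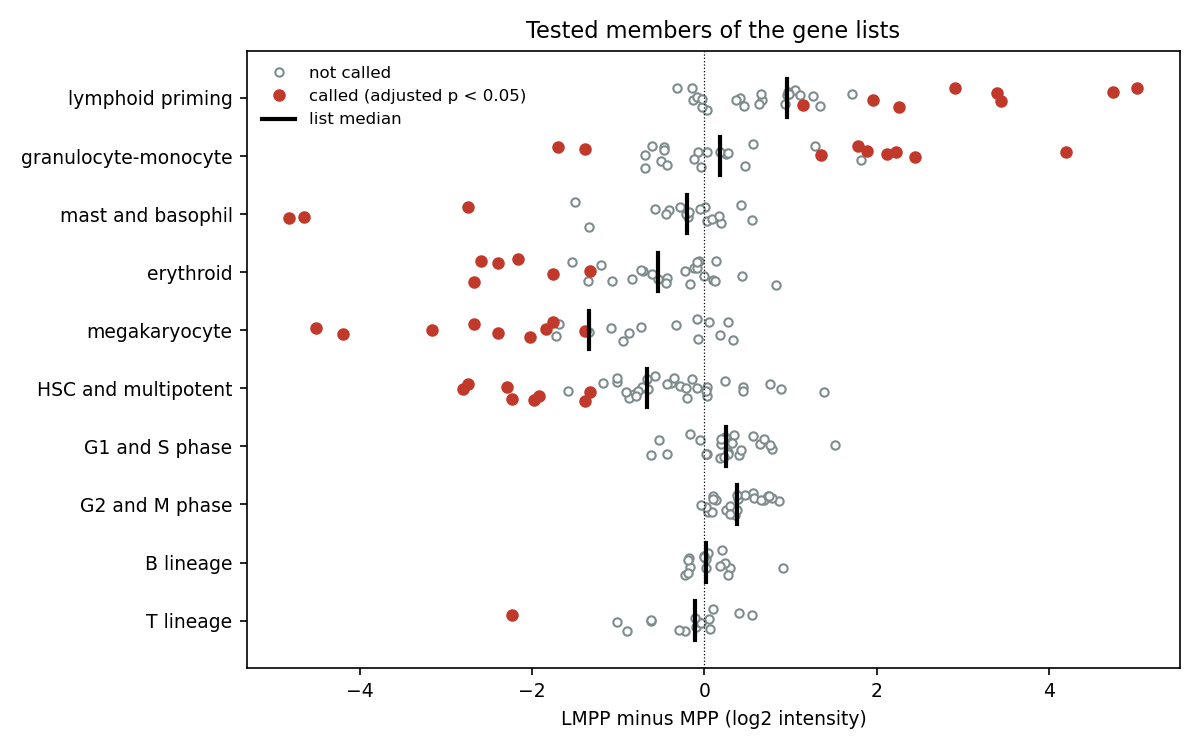
LMPP minus MPP difference in log2 intensity of every tested member of 10 gene lists, 1 circle per gene, filled when called at an adjusted p below 0.05, with a bar at the list median. The lymphoid priming list lies to the right (median 0.97), the megakaryocyte (-1.34), HSC and multipotent (-0.67) and erythroid (-0.54) lists to the left. The B lineage list lies near 0 (0.02), and the G1 and S phase (0.25) and G2 and M phase (0.38) lists lie somewhat to the right as deposited.

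Levels across the progenitor series show where the LMPP stand. Dntt was 8.88 and 8.04 in HSC, 8.28 and 7.70 in MPP, 12.72 and 12.76 in LMPP, and 13.67, 13.60 and 13.37 in CLP. The GMP arrays read 4.72, 4.66 and 4.72. Satb1 was 6.61 and 6.40 in HSC, 7.59 and 7.08 in MPP, 10.78 and 10.69 in LMPP, and 11.25, 11.74 and 10.88 in CLP, and CLP minus LMPP (0.55, limma adjusted p = 0.11) was not called. Il7r by contrast was 5.15 and 5.54 in HSC, 4.34 and 3.67 in MPP, 5.90 and 4.79 in LMPP, and 11.19, 11.72 and 11.20 in CLP, and Rag1 was 2.91 to 3.56 in LMPP but 9.25 to 11.07 in CLP. Vwf was highest in HSC (9.67 and 10.22), lower in MPP (4.40 and 7.11) and below the array median in LMPP (2.47 and 2.71), CLP (3.02 to 3.17) and GMP (2.99 to 3.22), where the values have no order. For Gata1 and Itga2b the HSC and MPP arrays overlapped, and the LMPP, CLP and GMP arrays lay below them. Cpa3 was 6.71 and 7.16 in HSC, 8.20 and 8.92 in MPP and 3.63 and 4.19 in LMPP, and 9.0 to 9.16 in GMP.

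**Figure D4:**
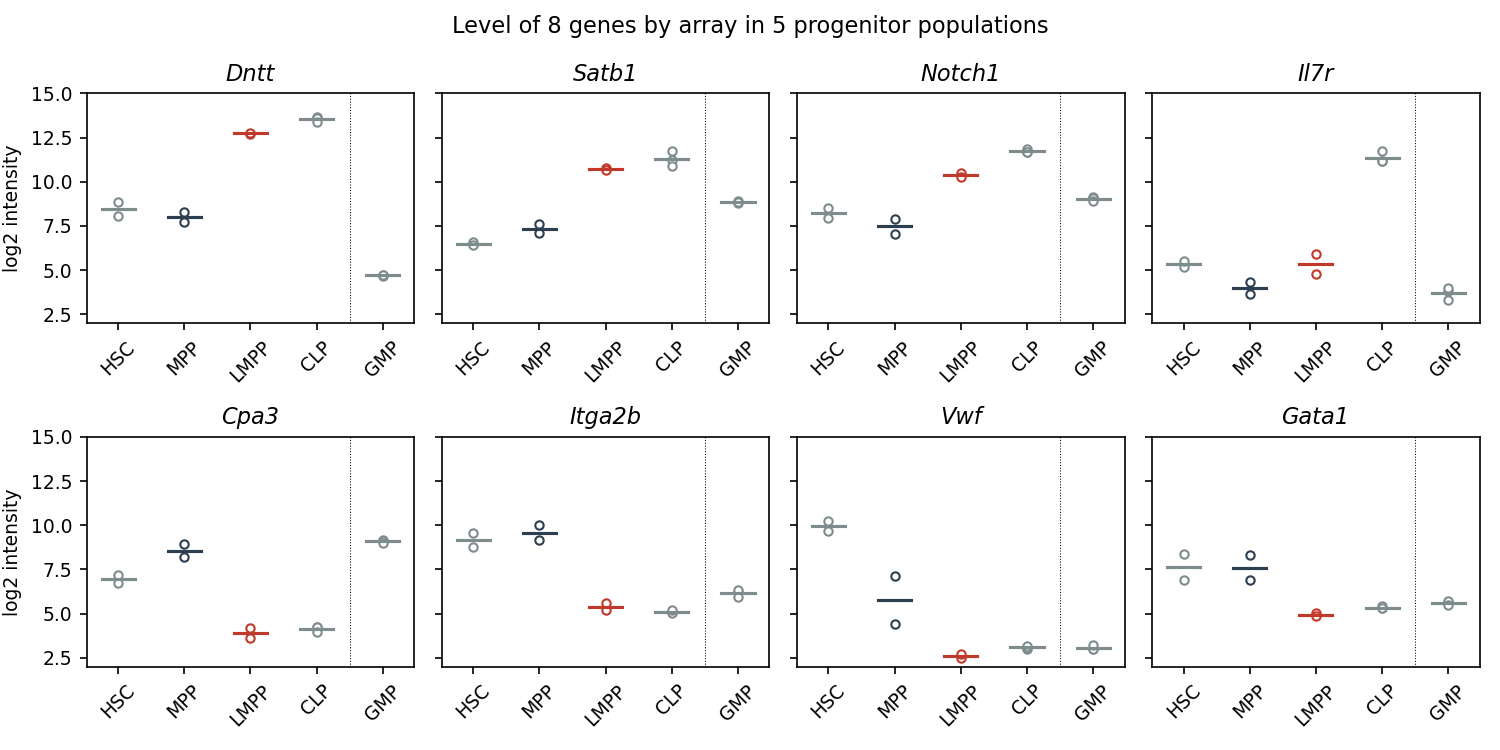
Log2 intensity of 8 genes on the arrays of HSC, MPP, LMPP and CLP, and of GMP right of the dotted line, with lines at group means. Dntt, Satb1 and Notch1 are high in LMPP and CLP, Il7r is high in CLP, and Itga2b, Vwf and Gata1 are low in LMPP, CLP and GMP, whereas Cpa3 is high in GMP. Satb1 and Notch1 were also called higher in GMP than in HSC.

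CLP and HSC arrays, which hold none of the 4 arrays compared, were set beside the called genes. CLP minus HSC and LMPP minus MPP came from the same limma model and share its error estimate per gene. The part of this shared error in the counts below was not tested. Of the 127 genes higher in LMPP, 102 were also called higher in CLP than in HSC (80.3%) and 6 lower, where 11.4% of all genes tested were called higher and 27.9% lower. Of the 104 genes lower in LMPP, 98 were called lower in CLP than in HSC (94.2%) and 0 higher. With CLP array 2 as the single CLP array the counts were 105 higher and 3 lower of the 127, and 96 lower and 0 higher of the 104, against a background of 8.62% higher and 14.7% lower. Ccl3 was not called in CLP against HSC (-1.10), and Cd74 was higher in LMPP but lower in CLP than in HSC (-1.44).

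In GMP against HSC, which shares the HSC arrays with CLP against HSC, 58 of the 127 were called higher and 25 lower, with backgrounds of 18.2% and 20.2%. Of the 104, 88 were called lower and 8 higher. Cpa3, Elane and Ms4a3 were among the 8, with GMP minus HSC at 2.16 for Cpa3, 3.24 for Elane and 7.34 for Ms4a3. Dntt, Flt3 and Il1r1 were higher in LMPP and in CLP and were lower in GMP than in HSC (-3.76, -1.43 and -0.85). Other lymphoid priming genes went the other way. Of the 8 called in LMPP, 3 were called higher in GMP than in HSC (Satb1, Notch1 and Btla), 2 lower and 3 not called. The CLP and GMP arrays also carried the wide 3' to 5' gap given above, whose part in these counts was not tested.

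**Figure D5:**
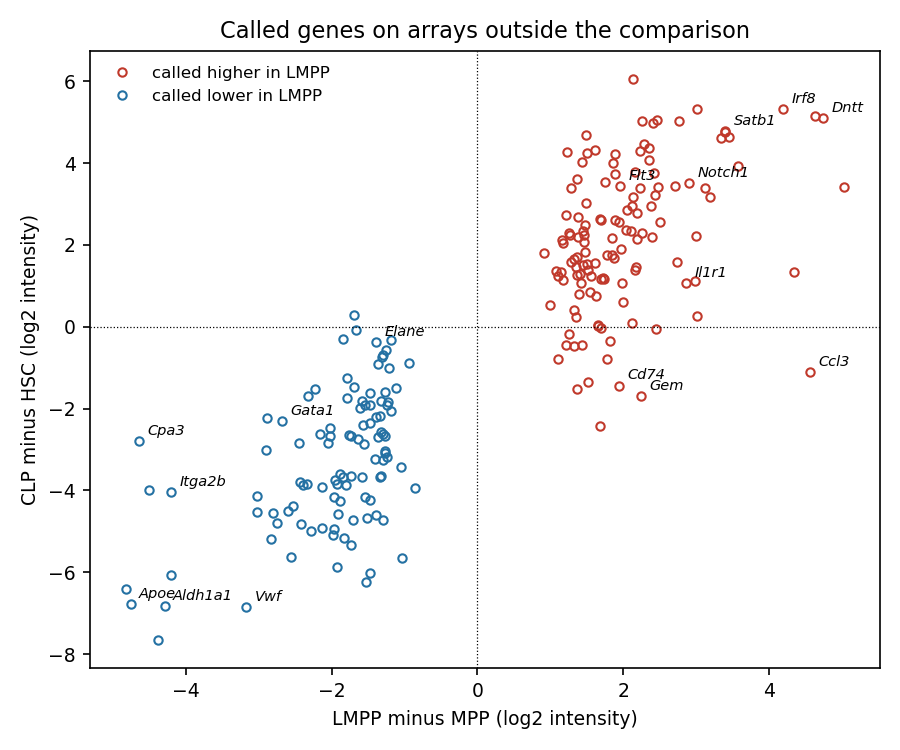
CLP minus HSC against LMPP minus MPP difference in log2 intensity for the 231 called genes, 127 called higher in LMPP in red and 104 called lower in blue, with selected gene names. Most red points lie above 0 on the vertical axis and nearly all blue points below it, with Ccl3 (-1.10) and Cd74 (-1.44) among the red points below 0.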

How the data were processed

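The values deposited by the authors are linear intensities of 45101 probe sets, produced with RMA (background correction, normalization across arrays, probe summary) per the submitters' processing notes. No RMA version is named. Biotin-labelled RNA had been amplified in several rounds per the labels' protocols. The design had assumed that the values might be on the log2 scale, and since the deposited intensities were linear, their log2 was taken first. Array medians of the 4 arrays compared lay between 3.84 and 3.89 on the log2 scale.

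Genes were named from the 34958 probe sets with 1 symbol (932 had several and 9211 none here), 34754 of which matched a RefSeq gene table by Entrez ID. A gene with several probe sets was represented by the one with the highest average signal. Of 18194 genes, 13479 exceeded an array's median on 2 or more arrays and were tested, and 4715 were dim. One limma model (version 3.58.1, R 4.3.3) of 9 groups over 20 arrays, with eBayes trend and 11 residual degrees of freedom, gave the contrasts, and Benjamini-Hochberg adjustment ran over all genes tested. Differences are given with the standard error (SE) of that model. Levels of different genes are not compared. The number of arrays, 2 a group, limits the precision.

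Members and lists were chosen with earlier results of these data known. The naming rule took every called member of the 4 main lists, a set of key genes whatever their values, up to 4 called members of each other list or the 2 largest where none was called, and the 10 largest changes in each direction. Some list members were not analysed here.

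In simulated data made from these arrays, 84.4% of genes changed by 2 log2 units and 23.0% of those changed by 1 were recovered in LMPP minus MPP over 13479 genes, and 6.04% of calls were false. In the real arrays the root-mean-square SD per gene differed between groups, from 0.171 in GMP to 0.561 in CLP. Whether the simulated rates hold for the real arrays was not tested. Alternatives were filters, probe set choice, no trend, repeated quantile normalization, housekeeping centring, fits on fewer arrays, array weights, a replicate block, a threshold of 2-fold, and fits without each array or without CLP arrays 1 and 3. A fit without CLP and GMP was chosen after seeing the data.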

Additional observations from a re-analysis of the deposited data

How the results depend on the processing

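The counts of called genes, 127 higher and 104 lower in LMPP, moved most with the arrays and the error estimate. Centring on housekeeping genes gave 67 higher, the fit on HSC, MPP and LMPP 73 and 41, array weights 302 and 165, and leaving out CLP arrays 1 and 3 247 higher. Leaving out 1 array in turn gave 57 to 90 higher and 45 to 116 lower, with 59 and 45 without MPP array 2. It gave 4 to 7 lymphoid priming, 3 to 5 mast cell, 2 to 5 erythroid and 6 to 12 megakaryocyte genes. The fit on HSC, MPP and LMPP gave 4 lymphoid priming, 1 erythroid and 3 megakaryocyte genes, and array weights 13 lymphoid priming and 5 mast cell genes. Without CLP arrays 1 and 3, the genes higher in LMPP that were also higher than in HSC numbered 193 for CLP and 127 for GMP, against 102 and 58. The cause of these moves was not tested. Fewer arrays leave fewer degrees of freedom, but the counts of called genes rose when CLP arrays 1 and 3 were left out.

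Whether the replicate numbers mark pairs cannot be told from 2 pairs. Replicate 1 deviations of LMPP and MPP correlated at 0.12 over genes. With the replicate block the 20-array fit gave 146 and 108. The fit on the 4 arrays alone gave 172 and 86 without the block and 587 and 285 with it. With the block it called 17 lymphoid priming, 5 mast cell, 12 erythroid and 15 megakaryocyte genes. Whether the block is warranted was not tested. Of 49 named called genes, 24 kept their call in all alternatives, and 17 lost it without MPP array 2. Among uncalled genes the sign turned for Cd72 when centred on housekeeping genes (-0.036). With an array left out, it turned for Cd72 (-0.050 to 0.657), Eif2s3y (-0.058 to 1.087), Kit (-0.920 to 0.498), Mpo (-0.367 to 0.291) and Polr2a (-0.778 to 0.035).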

Other observations

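Among the genes higher in LMPP, 6 were called lower in CLP than in HSC. All but Cd74, a member of the antigen presentation list, were named after their values were seen. They were Cd74, Cd200, Dusp2, Ptgs2, Gem and Acot1. Ptgs2, which encodes a prostaglandin synthase, read 6.06 and 5.83 in LMPP, against 4.25 and 4.28 in MPP (1.68 ± 0.35, SE, limma adjusted p = 0.011), and CLP minus HSC was -2.43. Dusp2, a MAP kinase phosphatase gene, read 10.12 and 9.68 in LMPP, against 8.55 and 8.55 in MPP (1.36 ± 0.31, limma adjusted p = 0.0249), and CLP minus HSC was -1.52. Gem read 7.18 and 5.87 in LMPP, against 4.75 and 3.83 in MPP (2.24 ± 0.39), with LMPP array 1 the higher. The HSC arrays read 9.54 and 9.69 for Dusp2, above both MPP arrays.

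Bgn and Tie1 were lower in LMPP as well, again named after their values were seen. Bgn, a matrix proteoglycan gene, read 4.69 and 4.02 in LMPP, against 7.14 and 7.61 in MPP (-3.02 ± 0.32). Tie1, a receptor kinase gene of endothelium and stem cells, read 3.30 and 3.60 in LMPP, against 5.60 and 6.20 in MPP (-2.45 ± 0.26). Both were lower in CLP than in HSC, by limma at differences of -4.13 and -2.83.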
